A study of Caenorhabditis elegans with 4 samples.

Results

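Chromosome III of Caenorhabditis elegans carried 1238 of 5973 H3K36me3 peaks in replicate 1 and 1278 of 6223 in replicate 7. The members are every deposited peak with III in its chromosome column, in WormBase WS190 coordinates, and no peak was chosen by a measured value. The chromosome itself was chosen with earlier results of these data known. The peaks came from chromatin immunoprecipitation and sequencing (ChIP-seq) of whole worms of N2, the standard wild-type strain, at the L3 larval stage. Both immunoprecipitated samples share the strain, the stage, the tissue (whole body) and 1 lot of the Abcam antibody AB9050, and each was called against an input DNA sample of its own. The 4 samples of the series are these 2 and the 2 inputs, whose values are not analysed here. Whole animals mix germ line and somatic tissues, so a peak cannot be assigned to a cell type.

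H3K36me3 is trimethylation of lysine 36 on histone H3, a mark laid down over the bodies of transcribed genes. In this worm it is written by MET-1, which follows RNA polymerase II, and by MES-4, which keeps the mark on genes used in the germ line. Worm autosomes have a gene-rich centre that holds many conserved and essential genes, and arms with more repeats and more recombination. Here the arms are the outer 25% of the chromosome at each end, and the centre is the 50% between them. The span of the peaks, from base 1 to the last peak end in either list, is 13779042 bp (13.8 Mb). The left arm ends at 3444760 and the right arm begins at 10334282, which gives arms of 3.44 Mb and a centre of 6.89 Mb. A peak or a gap was placed by its midpoint, and covered length was divided at the borders.

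Peaks covered 28.8% of chromosome III in replicate 1 and 27.0% in replicate 7, a mean of 27.9% ± 1.27 (SD, n = 2). Chromosome III thus held 21.6% and 21.3% of all covered length in the lists, on 13.8% of the spanned length. Chromosome I was alike in cover, at 28.7% and 26.8%, and chromosome II was at 20.5% and 19.7%. The density of peaks on III was 89.8 and 92.7 per Mb, against 88.9 and 94.4 on I and 61.9 and 68.0 on II. The cover of III and I differed by less than the difference between the replicates. The cover of III exceeded that of II in both replicates by more than that difference. With 2 samples, an exact paired sign-flip permutation test cannot go below a two-sided p of 0.5, so no difference between segments or chromosomes can pass that test here. Differences are therefore set beside the spread between the replicates, which may be technical, since nothing in the labels says that they came from separate cultures.

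The marking was dense but uneven along the chromosome, which spans 138 windows of 100 kb, the last one shorter. The median window had 28.9% of its bases under peaks in replicate 1 and 26.3% in replicate 7, with interquartile ranges of 19.4 to 37.4% and 18.1 to 35.7%. In both lists the median window held 9 peaks, with at most 19 in replicate 1 and 22 in replicate 7. Windows with at least 40% cover in both replicates numbered 24 of 138, or 17.4%, against 6.08% of the windows of all chromosomes. The same share was 14.6% on chromosome I and 5.23% on chromosome II. Windows under 10% in both replicates numbered 11, or 7.97%, against 31.1% of all windows. Chromosome I had 7.28% of such windows and chromosome II had 22.2%.

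Of the 24 dense windows, 18 lay in the centre, 2 in the left arm and 4 in the right arm. Of the 11 sparse ones, 7 lay in the left arm, 2 in the centre and 2 in the right arm. A dense window was often flanked by a moderate one. The cover of adjacent windows correlated with a Pearson's r of 0.14 in replicate 1 and 0.25 in replicate 7 over 137 pairs, a description of neighbouring stretches of 1 chromosome in 1 library. The whole-chromosome value also holds the differences in cover between segments. Within segments, r in replicates 1 and 7 was -0.14 and -0.004 in the left arm, 0.15 and 0.11 in the centre, and 0.08 and 0.13 in the right arm.

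**Figure D1:**
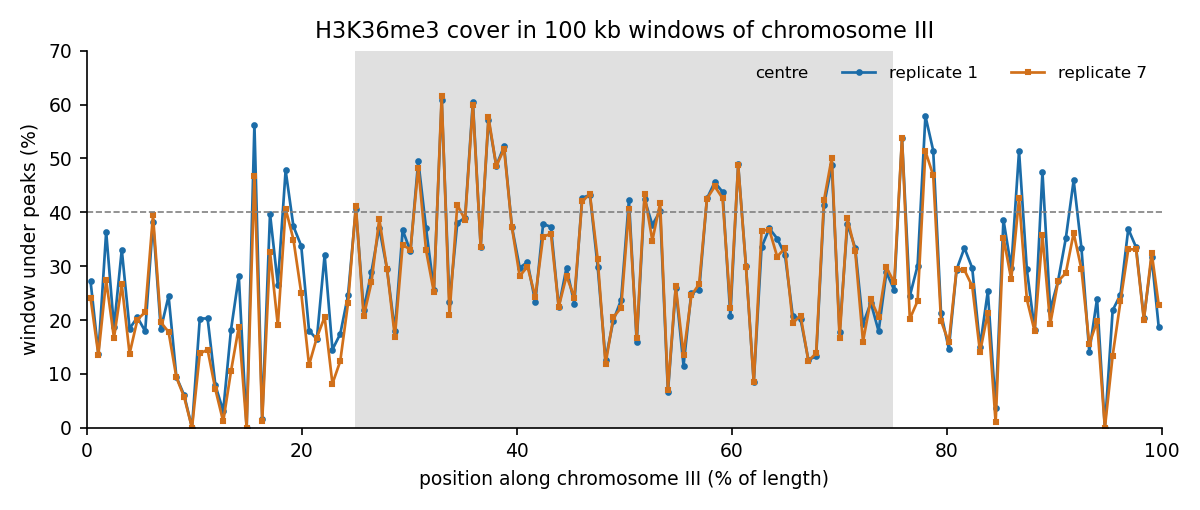
Percentage of each 100 kb window of chromosome III under H3K36me3 peaks (y axis) against its position as a percentage of chromosome length (x axis), with a line for each replicate, the centre shaded and the 40% level dashed. The highest windows, at about 61%, lie in the left part of the centre, 3 windows are at 0 in both replicates, and the lines part mainly outside the shaded centre.

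The 3 windows with the highest mean cover all lay in the left part of the centre. The window from 4500001 to 4600000 had 60.8% of its bases under 15 peaks in replicate 1 and 61.7% under 14 in replicate 7. The window from 4900001 to 5000000 had 60.5% and 59.97%, under 14 peaks in each list. The window from 5100001 to 5200000 had 57.2% under 14 peaks and 57.7% under 13. In each of them the replicates differed by less than 1 percentage point. This last window opened a stretch of 3 adjacent windows with at least 40% cover in both lists, from 5100001 to 5400000, which was covered by 52.7% in both. Another stretch of 3 windows ran from 7900001 to 8200000, at 44.0% and 43.3%. Stretches of 2 windows ran from 6300001 to 6500000 (43.0% and 42.7%), from 9400001 to 9600000 (45.0% and 46.2%) and from 10700001 to 10900000 (54.7% and 49.1%). The last of these is the 1 such stretch in an arm, and the 1 in which the lists differed by over 2 percentage points.

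At the other extreme, 3 windows were free of peaks in both lists, which is 2.17% of the windows against 5.18% over all chromosomes. This share was lower on chromosome I, at 0.662%, and on chromosome II, at 1.31%. The 3 windows of III began at 1300001 and 2000001 in the left arm and at 13000001 in the right arm. They lay inside the 3 longest stretches without peaks in both lists, which were 199 kb from 1206594 to 1405940, 145 kb from 1956841 to 2102100 and 128 kb from 12980354 to 13107863. The longest such stretch in the centre was 100.4 kb, from 9963965 to 10064315. Stretches of over 50 kb numbered 7 in the left arm, 7 in the centre and 9 in the right arm, although the centre has the length of both arms together. Absence of a peak means that enrichment was not called, and leaves weaker marking possible.

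The centre was covered most, the right arm came next and the left arm least, in both replicates. The centre was at 31.9% in replicate 1 and 31.7% in replicate 7, a mean of 31.8% ± 0.111 (SD, n = 2). The right arm was at 29.1% and 26.1% (27.6% ± 2.11), and the left arm at 22.3% and 18.4% (20.3% ± 2.74). The centre exceeded the left arm by more than the spread between replicates, and the arms did not overlap. The centre and the right arm did not overlap either, but in replicate 1 they were 2.79 percentage points apart, which is less than the 2.98 between the replicates in the right arm. The ratio of centre to both arms together was 1.24 and 1.43, a mean of 1.33 ± 0.130. The other autosomes also had greater cover in the centre. Their ratios were 1.19 and 1.38 on I, 1.14 and 1.27 on II, 1.25 and 1.40 on IV, and 1.39 and 1.57 on V. On X the ratio was 0.942 and 0.938. On III the right arm exceeded the left by 6.81 and 7.71 percentage points.

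The greater cover of the centre went with wider peaks in both replicates, and not with shorter median gaps. Centre peaks had mean widths of 3496 and 3605 bp in replicates 1 and 7, against 2851 and 2162 bp in the left arm and 2938 and 2373 bp in the right arm. Medians kept that order, at 2710 and 2776 bp in the centre, 2113 and 1745 bp in the right arm and 1915 and 1607 bp in the left arm. The median gap, by contrast, was longest in the centre in both lists, at 2162 and 2232 bp. It was 2005 and 1552 bp in the left arm and 1725 and 1497 bp in the right arm. The difference between centre and left arm in replicate 1, 157 bp, was below the 453 bp between the replicates in that arm. Mean gaps, which the long gaps weigh on, were 7467 and 7756 bp in the centre, below the 9894 and 9538 bp of the left arm and above the 7176 and 6735 bp of the right arm. By mean gap the centre was thus more closely set than the left arm, and by median gap it was not.

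Peak density followed another order than cover. The right arm had the most peaks per Mb, 98.99 in replicate 1 and 110 in replicate 7. The centre had 91.2 and 88.0, and the left arm 78.1 and 85.1. Relative to the right arm, the centre therefore had 0.921 and 0.799 of the peaks per Mb but peaks of 1.19 and 1.52 times the mean width. Relative to the left arm it had 1.17 and 1.03 times the peaks per Mb and 1.23 and 1.67 times the width. With the upper 50% of each list by score, the centre had 57.8 and 58.3 peaks per Mb and the right arm 43.5 and 47.6. Score went with width on III, with a Spearman's rho of 0.90 and 0.85. This cut therefore favours wider peaks and is no separate check of peak number.

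**Figure D2:**
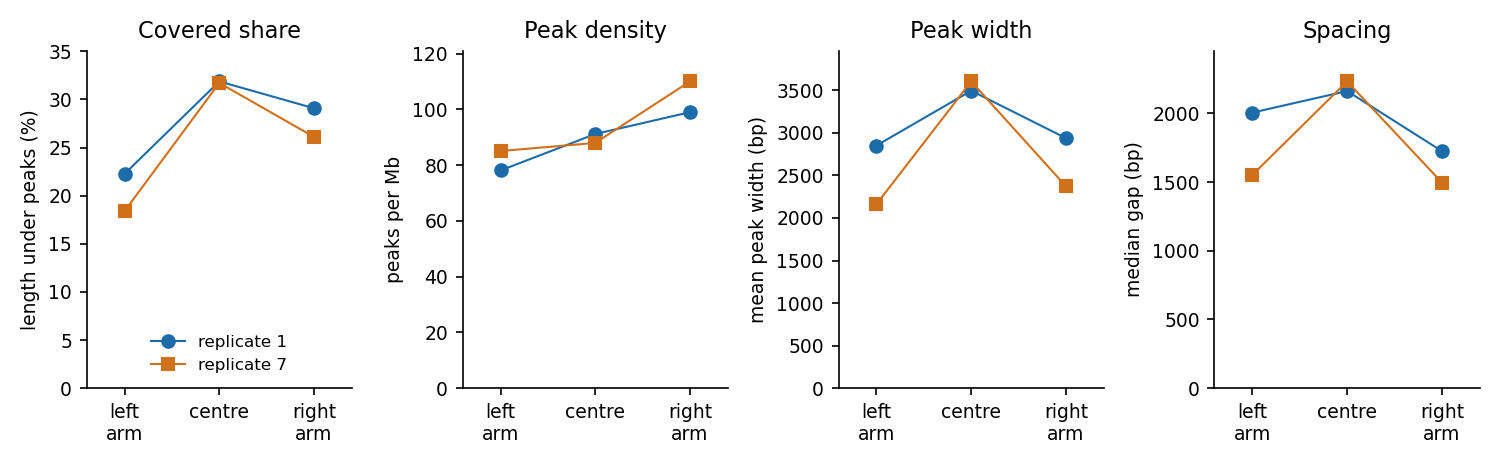
Covered share (% of length), peaks per Mb, mean peak width (bp) and median gap to the next peak (bp) in the left arm, centre and right arm of chromosome III, 1 marker per replicate and no error bars. The centre is highest in cover, width and gap in both replicates, and the right arm is highest in peaks per Mb.

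Chromosome I also had wider peaks and longer median gaps in its centre. Its mean peak width in the centre was 1.34 and 1.63 times that in its arms, against 1.21 and 1.58 times on III, and its peaks per Mb in the centre were 0.885 and 0.845 of those in the arms, against 1.03 and 0.902 on III. The median gap of its centre was 2.21 and 1.77 times that of its arms, against 1.2 and 1.46 times on III, so that the median gaps of centre and arms were more alike on III in both replicates. On chromosome V this ratio was 3.36 and 3.33. Median gaps were longer in the centre than in the arms on all 6 chromosomes in both lists, by 1.2 to 3.36 times.

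The centre held the most wide peaks in both lists, and its lead in their share of peaks was clearer in replicate 7. Peaks over 10 kb on chromosome III numbered 34 in replicate 1 and 27 in replicate 7, or 2.75% and 2.11% of its peaks, against 2.21% and 1.56% over all chromosomes. Chromosome I had larger shares than III, at 2.99% and 2.32%, and chromosome II had 2.96% and 1.35%. On III the centre held 19 and 20 of the peaks over 10 kb, the left arm 7 and 3, and the right arm 8 and 4. As shares of the peaks in each segment these were 3.03% and 3.30% in the centre, 2.60% and 1.02% in the left arm, and 2.35% and 1.06% in the right arm. Peaks over 5 kb made up 20.4% and 20.1% of centre peaks. In the left arm their share was 15.6% and 6.48%, and in the right arm 14.1% and 7.39%. Both arms thus had fewer wide peaks in replicate 7 than in replicate 1, while the centre had 122 over 5 kb in replicate 7 and 128 in replicate 1. Peaks under 1 kb were fewer in replicate 7 in all 3 segments, at 14 against 31 in the left arm, 2 against 26 in the centre and 18 against 43 in the right arm.

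The widest peak of replicate 1 spanned 23.3 kb of the right arm, from 11751136 to 11774442, and replicate 7 had 5 peaks over it that covered 93.4% of its length. The next were 20.7 kb from 5380648 to 5401359 and 18.7 kb from 5249104 to 5267753, both in the centre, with 1 and 2 replicate 7 peaks over them. In replicate 7 the widest peak was 21.7 kb long, from 5380648 to 5402343, and began at the same base as its partner in replicate 1. It was followed by 15.5 kb from 6367836 to 6383302 and 14.2 kb from 8371877 to 8386034. Replicate 1 had 3 peaks over each of these, covering 96.5% and 97.4% of their length. The broadest centre domains were thus nearly the same stretches of DNA in both lists, cut in different places.

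Gaps between neighbouring peaks ranged from 0 bp to 199465 bp in replicate 1 and 199535 bp in replicate 7. The medians of replicates 1 and 7 were 1966 and 1818 bp (mean 1892 bp ± 105, SD, n = 2), the interquartile range was 497 to 8614 bp and 421 to 8226 bp, and the means were 7915 and 7863 bp. Gaps of 1000 bp or less were 37.7% and 40.3% of all gaps on III, against 33.8% and 35.6% over all chromosomes. Chromosome I had slightly larger shares than III, at 38.9% and 40.8%, and chromosome II had 36.7% and 38.7%. Gaps over 10 kb were 22.5% and 21.5% of the gaps on III, and held 79.5% and 79.3% of the length between its peaks. Most of the unmarked length was therefore in a minority of long gaps.

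Gaps of 1000 bp or less were about equally frequent in the centre in both lists, at 37.3% and 37.6%. In the left arm their share was 36.8% in replicate 1 and 42.7% in replicate 7, and in the right arm it was 39.1% and 42.6%. Gaps over 10 kb made up 25.7% and 24.2% of left arm gaps, and 22.5% and 23.1% of centre gaps, while the right arm had 68 and 64 such gaps of 340 and 378, the latter 16.9%. The right arm had the smallest share of long gaps in both lists. Directly abutting peaks, with a gap of 0 bp, numbered 3 in each list. The list does not show whether 2 peaks a few bases apart are separate places or a division of 1 domain.

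**Figure D3:**
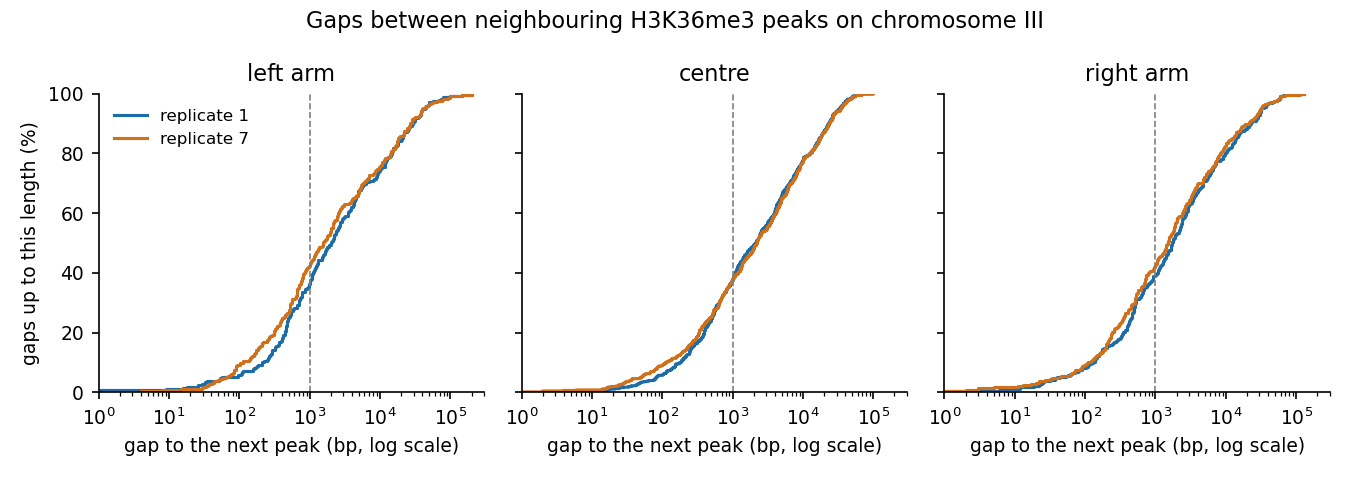
Cumulative percentage of gaps (y axis) up to a given length in bp (x axis, log scale, gaps of 0 bp drawn at 1) in the left arm, centre and right arm, 1 line per replicate, with 1000 bp dashed. The lines of the replicates lie together in the centre above 1000 bp, and in both arms replicate 7 has the larger share of gaps at 1000 bp.

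Neighbouring peaks formed runs, defined here as series of at least 3 peaks in which each gap was 1000 bp or less. Runs numbered 106 in replicate 1 and 132 in replicate 7 and held 383 and 481 peaks. These were 30.9% and 37.6% of the peaks on III, against 26.8% and 30.6% of the peaks on all chromosomes. Chromosome I had 31.4% and 36.3%, on either side of the values of III, and the X chromosome had 9.11% and 6.01%. Peaks that had no neighbour within 1000 bp made up 38.5% and 36.5%. Peaks covered 92.4% and 92.1% of the length of the runs, which held 33.9% and 39.1% of all covered length on III. Most runs were short, with 65 and 89 of 3 peaks, 25 and 20 of 4, and 16 and 23 of 5 or more.

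The share of peaks in runs was 31.5% and 34.0% over the whole centre. In the left arm it was 29.0% in replicate 1 and 41.0% in replicate 7, and in the right arm 31.4% and 40.9%. Parts of the centre also differed between the replicates, in both directions. When the chromosome was divided into 8 equal parts, the part from 3444761 to 5167140 had 33.7% and 43.8% of its peaks in runs, and the next part, from 5167141 to 6889521, had 34.6% and 27.9%. The median run was shorter in the arms in replicate 7, at 7.83 kb on the left and 7.03 kb on the right, than in replicate 1, at 10.97 and 13.1 kb. In the centre it was 13.3 and 13.5 kb. Every series of peaks with gaps of up to 1000 bp was also counted as 1 domain, single peaks included. The replicates were then relatively closer in number in both arms, and not in the centre. The left arm had 170 and 168 such domains from 269 and 293 peaks, the centre 395 and 378 from 628 and 606, and the right arm 207 and 218 from 341 and 379. The share of peaks in runs was also higher in both arms of replicate 7 with other run gaps. With gaps of up to 500 bp it was 13.8% and 16.7% in the left arm and 12.9% and 21.4% in the right arm. The centre then had 13.7% and 16.2%. With gaps of up to 2000 bp these shares were 48.7% and 57.7%, 52.5% and 59.1%, and 49.2% and 47.7%. When the peaks themselves were changed, the share was higher in replicate 7 in only 1 of the arms. Once peaks within 500 bp had been joined it was 7.92% and 9.77% in the left arm and 6.58% and 6.02% in the right arm. With the upper 50% of peaks by score it was 15.5% and 13.3% in the left arm, 10.7% and 18.3% in the right arm and 18.6% and 23.9% in the centre.

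The run with the most peaks in replicate 1 lay in the centre from 4907405 to 4946909, with 8 peaks over 39.5 kb and gaps of 264 to 499 bp. Replicate 7 had a run of 8 peaks over the same place, from 4907329 to 4946770, with gaps of 109 to 628 bp. Peaks covered 93.4% of the former and 94.8% of the latter. This run lies in the window with the second highest cover of the chromosome. In replicate 7 a run of 10 peaks ran from 10736722 to 10775492 in the right arm, over which replicate 1 had 6 peaks, and a run of 9 peaks from 11751398 to 11780959, over which it had 3. The latter is the place of the widest replicate 1 peak. The next runs of replicate 1, of 7 peaks each, were 32.7 kb from 6363326 to 6395981 in the centre, over which replicate 7 had 3 peaks, and 12.3 kb from 11894482 to 11906782 in the right arm, over which it had 5. Of the replicate 1 runs, 68.9% (73 of 106) overlapped a run of replicate 7, and 56.1% (74 of 132) of the replicate 7 runs overlapped one of replicate 1. These shares were not computed over all chromosomes, so they cannot be called high or low for these lists. One replicate 1 run overlapped no replicate 7 peak at all, and all 132 replicate 7 runs overlapped some replicate 1 peak.

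Peak by peak, 88.4% of replicate 1 peaks on III (1094 of 1238, exact Clopper-Pearson 95% interval 86.5 to 90.1%) overlapped a replicate 7 peak by at least 1 bp. The share over all chromosomes was 89.6%, within that interval. In the other direction it was 95.9% (1226 of 1278, 94.7 to 96.9%), against 94.8% over all chromosomes. The intervals take peaks as independent and hold counting error alone. In the centre, 93.0% of replicate 1 peaks had a partner (90.7 to 94.9%), against 79.2% in the left arm (73.8 to 83.9%) and 87.1% in the right arm (83.1 to 90.5%). The shares of replicate 7 peaks were closer, at 97.0%, 95.2% and 94.7%.

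The peaks without a partner were narrow. The 144 of replicate 1 had a median width of 1074 bp, against 2597 bp for those with one, and the 52 of replicate 7 had 1304 bp against 2248 bp. The 3 with the highest scores in replicate 1 all lay in the left arm, from 3183005 to 3185145, from 2789968 to 2793072 and from 410423 to 412601. They lay 2377, 876 and 4242 bp from the nearest replicate 7 peak, and their scores stood at the 54.1st, 37.5th and 35.4th percentile of the list. In replicate 7 they were 732185 to 736009 in the left arm, 11510193 to 11511541 in the right arm and 4078528 to 4080558 in the centre. The first of these, 3825 bp wide, was 36512 bp from any replicate 1 peak, the second 4924 bp and the third 351 bp.

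Where 1 peak matched 1 peak (823 pairs), the borders fell close together. The median distance between the matched edges was 88.5 bp in the centre, 102.5 bp in the left arm and 100.5 bp in the right arm. For the farthest 10% of edges it was at least 335 bp in the centre, 647 bp in the left arm and 556 bp in the right arm. Replicate 7 peaks were the narrower of the pair in 87 of 151 pairs of the left arm and 121 of 202 of the right arm, and in 199 of 470 of the centre. Replicate 1 peaks that touched 2 or more replicate 7 peaks made up 12.8% on III, against 11.2% over all chromosomes. They were 18.2% of left arm peaks, 18.5% of right arm peaks and 7.32% of centre peaks. The reverse share was 5.56% on III against 4.82% over all chromosomes, and was 2.73%, 5.80% and 6.77% in the left arm, right arm and centre. Division of a peak was thus lopsided in the arms and nearly even in the centre.

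The difference between the replicates in cover sat in the arms. Cover in both arms together was 25.7% in replicate 1 and 22.2% in replicate 7, a difference of -3.43 percentage points. In the centre the difference was -0.156. Of the 34 windows of the left arm, 28 had lower cover in replicate 7, with a median difference of -3.87 points, and of the 35 of the right arm 27 did, with a median of -2.68. In the centre 39 of 69 were lower, with a median of -0.06. Over all chromosomes 55.4% of windows were lower in replicate 7. Windows lower by over 5 points numbered 16 in the left arm, 8 in the right arm and 0 in the centre, 24 of 138 on III (17.4%), against 7.47% of all windows. The other autosomes had the same pattern, so it is not particular to III. On chromosome I the arms were at 26.2% and 22.5%, and the centre at 31.1% in both lists. Arm cover was 19.2% and 17.4% on II, 15.1% and 13.5% on IV, and 9.32% and 8.30% on V. Centre cover there was 21.8% and 22.0%, 18.9% and 18.8%, and 13.0% and 13.0%. On X the arms were at 9.39% and 9.47%.

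The 3 windows with the largest differences were in the arms. Cover was 47.5% in replicate 1 and 35.7% in replicate 7 in the window from 12200001 to 12300000, which held 16 peaks in each list. It was 32.1% and 20.6% from 3000001 to 3100000, under 9 and 11 peaks, and 46.0% and 36.2% from 12600001 to 12700000, under 19 and 21 peaks. The number of peaks in these windows was equal or higher in replicate 7, and the peaks were narrower. No window differed by over 5 points between 3300001 and 10600000, a stretch of 73 adjacent windows that was picked after its values were seen and that lies close to the borders of the centre. The differences within it ranged from -4.23 to 3.37 points. The windows just outside it differed by -5.05 and -6.57 points.

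**Figure D4:**
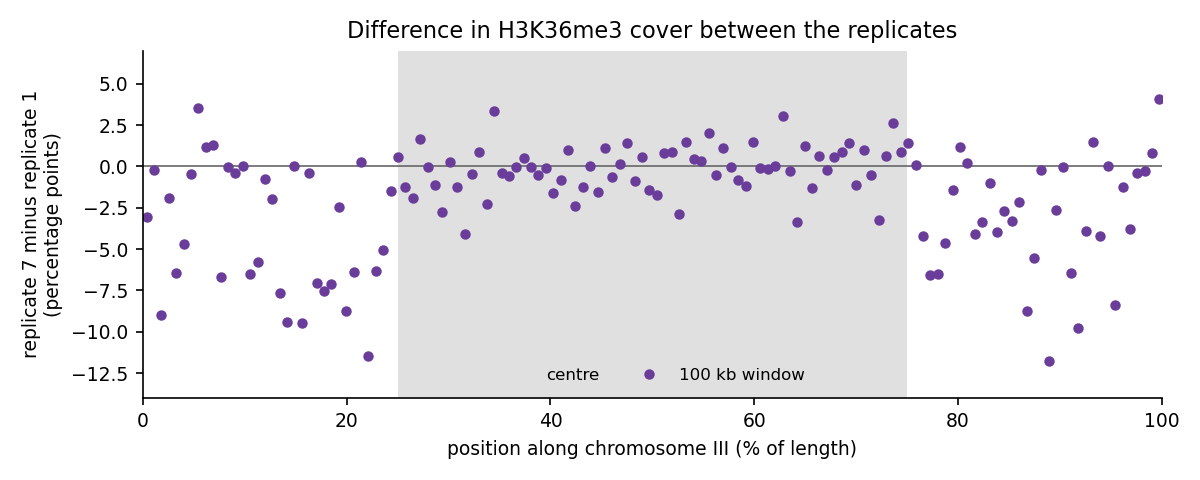
Cover of each 100 kb window of chromosome III in replicate 7 minus replicate 1 (y axis, percentage points) against its position as a percentage of chromosome length (x axis), with the centre shaded. Points in the centre stay between -4.09 and 3.37, and points in the arms reach down to -11.8.

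The bases under peaks of replicate 1 alone amounted to 490 kb of chromosome III, and those of replicate 7 alone to 243 kb, beside 3475 kb under peaks of both. The shared bases were 88.8% of those covered in either list in the centre, 77.9% in the right arm and 71.1% in the left arm. Most of the length of replicate 1 alone belonged to peaks that had a partner. In the left arm, replicate 1 alone covered 185 kb, of which 84.96 kb was at the outer flanks of peaks with a partner, 71.6 kb was in peaks without one, and 28.6 kb lay between replicate 7 peaks inside 1 replicate 1 peak. In the right arm these were 89.7, 48.6 and 31.0 kb of 169 kb. Replicate 7 alone covered 51.8 kb of the left arm and 66.6 kb of the right arm. In the centre the lists were nearly balanced, at 135 kb for replicate 1 alone and 124 kb for replicate 7 alone, with 74.4 and 88.6 kb at flanks.

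**Figure D5:**
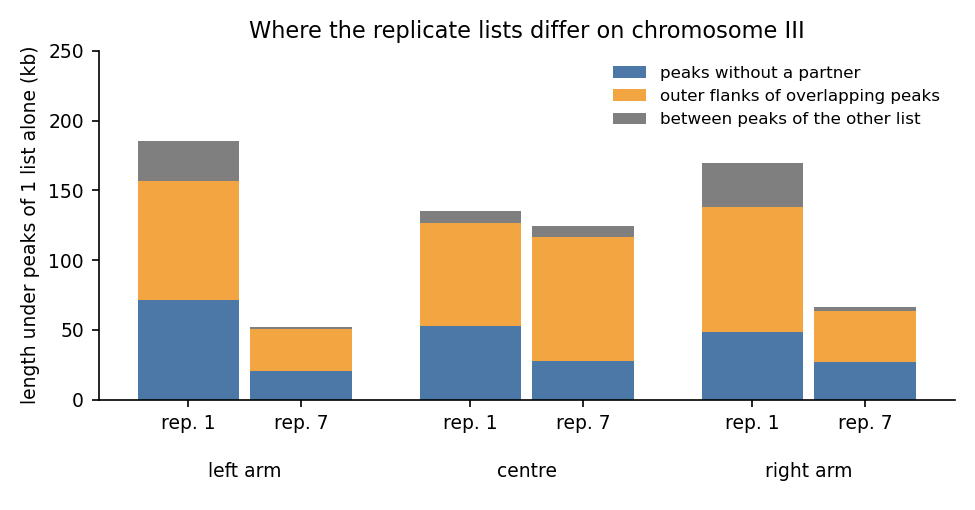
Length in kb covered in 1 replicate list alone (y axis) in the left arm, centre and right arm, as stacked bars for each replicate, divided into peaks without a partner, outer flanks of overlapping peaks, and stretches between peaks of the other list. The replicate 1 bars reach 185 and 169 kb in the arms against 51.8 and 66.6 kb for replicate 7, and the centre bars are 135 and 124 kb.

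The authors' score of a peak, whose meaning the files do not define, also differed along the chromosome. The median centre peak stood at the 63.1st percentile of the replicate 1 list and the 67.0th of the replicate 7 list. The median right arm peak stood at the 42.8th and 43.0th percentile, and the median left arm peak at the 33.9th and 34.2nd. The order of the segments by score percentile was thus that of cover and width. Score and width went together within each list, with a Spearman's rho of 0.90 in replicate 1 and 0.85 in replicate 7 over the peaks of chromosome III, and score is no separate measure of the mark here. Scores of 3100 or more, where many peaks tie, were held by 21.2% and 15.7% of the peaks on III, against 17.0% and 13.5% over all chromosomes. In the centre their share was 28.0% and 24.4%, and it was 13.4% and 5.46% in the left arm and 14.7% and 9.76% in the right arm.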

How the data were processed

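The analysis started from 1 peak list for each of the 2 H3K36me3 samples, each called on its own sample. Per the file headers, coordinates are in WormBase WS190. The submitters' processing notes name BWA, a read aligner. The peak names carry the name MACS and the source column reads MA2C. How the caller was set is not given in the sources used here. The score per peak is a deposited value with no definition. The lists hold no read counts, so depth is unknown. No genome of this build was used, so no sequence is printed and no gene is named; chromosome lengths are the last peak ends. Calculations used Python 3.11.15, numpy 2.4.6, pandas 2.3.3 and scipy 1.17.1, and matplotlib 3.10.9 drew the figures. The cover, overlap, joining and run code was tested on 200 simulated pairs of lists, with 0 differences from base-by-base counts. Regions named follow a fixed rule: per list, the 3 widest peaks, the 3 runs with most peaks and the 3 highest-scoring peaks without a partner; and the 3 windows highest and lowest in cover and most different between lists, the 3 longest peak-free stretches, and adjacent windows with at least 40% cover in both. The chromosome, measures and rule were chosen with earlier results of these data known. Alternatives were the upper 50% of peaks by score, joining within 500 bp, a centre of 40%, run gaps of 500 or 2000 bp, stricter overlap, and each replicate left out.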

Additional observations from a re-analysis of the deposited data

How the results depend on the processing

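The alternatives were run for 7 results, of which 4 are levels with no direction. The other 3, which are the ratio of centre to arms, the right arm minus the left, and the arm difference between replicates, kept their direction. The cut by score is no separate check of the ratio, since median scores were highest in the centre. The same holds for the right arm minus the left, since median scores were higher in the right arm. With the upper 50% of peaks by score, cover of chromosome III was 20.7%, the ratio of centre to arms 1.70, the right arm minus the left 6.32 percentage points, the median gap 5033 bp, the share of peaks in runs 18.6% and the overlap of replicate 1 peaks with replicate 7 99.8%. Joining peaks within 500 bp gave a median gap of 3985 bp and 7.76% of peaks in runs. A centre of 40% gave 5.79 points for the right arm minus the left. Run gaps of up to 500 and 2000 bp gave 15.7% and 51.7% of peaks in runs. Overlap by 50% of the replicate 1 peak gave 86.1%, and reciprocal 50% overlap 76.1%. Fewer peaks, wider gaps or stricter overlap follow from how these settings are built. The remaining settings for peaks and borders moved their results by less than the SD between replicates or the counting interval. For the arm difference between replicates, that SD comes from the same 2 values as the difference, so it is a wide limit and no check of stability. Leaving out a replicate gives the value of the other one, which by construction is within 1 SD of a mean of 2 and says nothing of stability. The arm difference between replicates was -4.04 to -2.89 points over its alternatives. Samples were not paired between the groups in the labels, which are immunoprecipitations and inputs, because lists of the former alone were analysed. Segments were compared within each replicate, without a test, since a paired sign-flip permutation test over 2 samples cannot reach a low p. Depth is unknown, and regions below the authors' threshold cannot be compared.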
